A study of Drosophila melanogaster with 82 samples.

Results

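LanA and alpha-Spec are 2 of the 16637 transcripts on this array, and both code for structural proteins of the cell's boundary. LanA is represented by transcript FBtr0077014 and alpha-Spec by FBtr0072789, with 8 probes each. Both were selected on their food differences in these same arrays, so those differences are given below as a description and carry no test. The arrays report messages held on ribosomes in 7 tissues of adult female Drosophila melanogaster, with 82 pools of flies in 14 groups of tissue and food, and ask how the response to food differs between tissues. Ribosomes were tagged in 1 tissue of each fly line and pulled down from the pools. The RNA was amplified and labelled with Cy3, and each pool was hybridised to its own array.

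The rich food, AL, held 5% yeast extract, and the restricted food, DR, held 0.5%. Flies of every group spent 10 days on their food and were 13 days old at collection. All of them, on either food, carried 1 copy of UAS-RpL13A-His6FLAG, a tagged ribosomal protein under GAL4 control, and 1 copy of a GAL4 driver. The drivers were S106-GS-GAL4 for fat body, NGT-GAL4 for germ line, MYOIA-GAL4 for gut, HAND4.2-GAL4 for heart, MHC-GAL4 for muscle, C155-GAL4 for neuron and C42-GAL4 for the Malpighian tubule, the fly's kidney-like organ. GS drivers respond to an inducer that is fed to the flies, and the labels do not say whether or how it was given. A tissue here therefore means the cells in which 1 driver line was active. Each group had 6 separate pools, except heart AL and neuron AL with 5, and a pool held 100 flies (200 for neuron).

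Laminins are trimers of an alpha, a beta and a gamma chain that are secreted and assemble into the sheet from which a basement membrane is built. LanA is one of the fly's laminin alpha chains, and laminin sheets are linked to type IV collagen, nidogen and perlecan and are held by integrins and dystroglycan. Spectrin is a rod-shaped tetramer of alpha and beta chains that crosslinks short actin filaments into a net under the plasma membrane. alpha-Spec codes for the fly's only alpha chain, which pairs with beta-Spec along the sides of cells and in neurons and with the heavy beta chain, kst, at the apical side of epithelia. Spectrin is also a component of the fusome of the female germ line.

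Of 16 listed basement membrane genes and 8 listed spectrin skeleton genes, LanA and alpha-Spec were the only ones that could be paired with a measured transcript. The partner chains of either protein were not analysed here, nor were any of 25 listed tissue markers, so the tissue labels were not checked against markers. LanA and alpha-Spec exceeded the 95th percentile of the 4100 random control probes on all 82 arrays. The smallest margin was 1.59 log2 units for LanA and 2.64 for alpha-Spec. Several arrays stood apart from their group. Neuron DR pools 4 and 6 correlated at 0.995 with each other over all transcripts, and at 0.972 and 0.973 with the mean of the other 4 neuron DR pools. Their correlation with the mean of the neuron AL pools was lower, 0.942 and 0.936, but above that of the other 4 DR pools, 0.839 to 0.874. Neuron DR pool 5 had the highest control probes of its group, with a 95th percentile of 9.26 on the log2 scale against 6.75 to 8.06 in the others. The median correlation of germ line DR pool 6 with its group was 0.852, and its control percentile was 8.58 against 6.71 to 7.54. That correlation was 0.942 for muscle DR pool 4, whose control percentile was 7.54 against 6.17 to 6.99. Where a food difference rests on these arrays, their values are given below. In such pulldowns from pooled flies, fewer cells of a type and less message per cell cannot be told apart.

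On DR food the mean LanA level was higher than on AL food in 6 of 7 tissues, most in fat body, and was lower in neuron. alpha-Spec was higher in 5 of 7, most in neuron, tubule and fat body. Every DR pool lay above every AL pool in 2 tissues for LanA, fat body and germ line, and in 4 tissues for alpha-Spec, fat body, gut, heart and tubule. In no tissue did every DR pool lie below every AL pool for either gene. Pools of the foods were separated in this way, in either direction, for 26.8% of all transcripts in fat body, 16.2% in germ line, 20.8% in gut, 48.0% in heart, 26.3% in muscle, 50.1% in neuron and 32.2% in tubule. Since food differences chose both genes, these counts describe them and are not read further. The median food difference over all transcripts lay between -0.11 in neuron and 0.07 in muscle. All levels and food differences below are in log2 units on the deposited scale, which is shared by the arrays of 1 tissue. Food differences are DR minus AL with the standard error (SE) of the limma model. This SE rests on 1 spread per gene, taken over all 14 groups, and does not follow the spread of a single tissue. For LanA the group SDs ran from 0.088 in muscle DR to 1.31 in neuron DR. For alpha-Spec they ran from 0.049 in tubule DR to 0.53 in neuron DR, with 0.52 in germ line DR. The SE is therefore too small for LanA in neuron and for alpha-Spec in neuron and germ line. It is too large where pools lay close together.

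**Figure D1:**
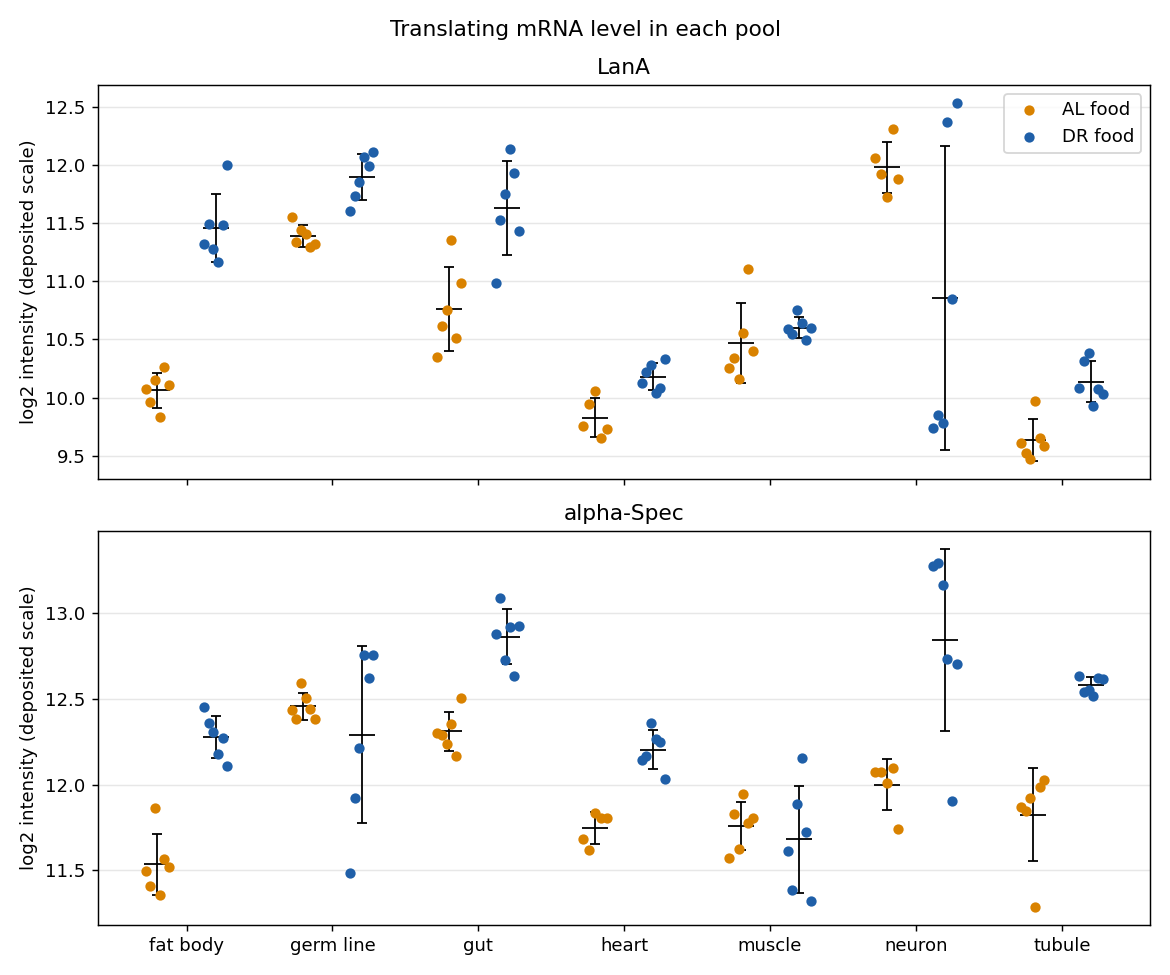
The log2 level of each gene (y axis, deposited scale) is plotted for every pool of every tissue (x axis), with AL and DR pools in different colours, the group mean as a short line and its SD as bars. Levels compare within a tissue. LanA in neuron spreads from 9.74 to 12.53 among DR pools, while its fat body pools form groups of AL and DR that do not overlap.

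LanA, the laminin alpha chain, differed most between foods in fat body. Its level on AL food ran from 9.83 to 10.27 with a median of 10.09, and on DR food from 11.17 to 12.00 with a median of 11.40. All 6 DR pools lay above all 6 AL pools. The means were 10.06 ± 0.15 (SD, n = 6) and 11.46 ± 0.29 (SD, n = 6), which is a difference of 1.39 ± 0.24 (SE) or 2.62-fold.

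Gut came next for LanA. AL pools ran from 10.35 to 11.35 with a median of 10.68, and DR pools from 10.98 to 12.13 with a median of 11.64. Here 5 of 6 DR pools lay above the highest AL pool. The difference was 0.87 ± 0.24 (SE) or 1.82-fold, with SDs of 0.36 for AL and 0.41 for DR (n = 6 each), so the pools spread more than in fat body.

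In germ line, the AL pools of LanA lay close together, from 11.29 to 11.55 with a median of 11.37, and the DR pools from 11.60 to 12.11 with a median of 11.92. The pools did not overlap, although the lowest DR pool lay only just above the highest AL pool. The difference was 0.50 ± 0.24 (SE) or 1.42-fold.

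Tubule gave a like difference of LanA, 0.50 ± 0.24 (SE), between AL pools from 9.47 to 9.97 (median 9.59) and DR pools from 9.92 to 10.38 (median 10.08). AL pool 4, at 9.97, was above the lowest DR pool, and 5 of 6 DR pools lay above it. In heart the AL pools were at 9.75, 9.94, 10.06, 9.65 and 9.73, and DR pools ran from 10.04 to 10.33 with a median of 10.17. The heart difference was 0.35 ± 0.25 (SE), with 5 of 6 DR pools above the highest AL pool.

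Muscle showed the smallest difference of LanA, 0.13 ± 0.24 (SE). Its DR pools, from 10.49 to 10.75 with a median of 10.59, all lay inside the AL range of 10.16 to 11.11, whose median was 10.37. The upper end of that range was AL pool 5, and the next AL pool was at 10.56.

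Neuron was the only tissue in which the LanA mean was lower on DR food. AL pools were at 12.06, 11.92, 11.73, 12.30 and 11.87. DR pools 1 to 6 were at 9.74, 9.85, 9.78, 12.37, 10.85 and 12.53. Thus 4 DR pools lay below the whole AL range and 2 lay above it, and these 2 were pools 4 and 6, whose arrays were closer to the AL arrays over all transcripts than the other DR arrays were, though closer still to DR. The means were 11.98 ± 0.22 (SD, n = 5) and 10.85 ± 1.31 (SD, n = 6), a difference of -1.12 ± 0.25 (SE) or 2.18-fold lower. The SE, from a spread shared by all groups, does not reflect the split of the neuron DR pools. Without pools 4 and 6 the difference was -1.92 or 3.80-fold lower, and without pools 4, 5 and 6 it was -2.19 or 4.56-fold lower.

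alpha-Spec, the spectrin chain, was separated by food in tubule, fat body, gut and heart. In tubule its AL pools ran from 11.29 to 12.03 with a median of 11.90, and its DR pools from 12.52 to 12.63 with a median of 12.58. The SD was 0.049 for DR and 0.27 for AL, and 0.076 for the 5 AL pools other than pool 4, which held the lowest value. The difference was 0.76 ± 0.15 (SE) or 1.69-fold.

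Fat body gave a difference of 0.74 ± 0.15 (SE) or 1.67-fold for alpha-Spec. AL pools ran from 11.36 to 11.87 with a median of 11.51, and DR pools from 12.11 to 12.45 with a median of 12.29. In gut, AL pools ran from 12.17 to 12.51 (median 12.30) and DR pools from 12.64 to 13.09 (median 12.90). The gut difference was 0.55 ± 0.15 (SE) or 1.47-fold. The lowest DR pool exceeded the highest AL pool in both tissues.

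Heart AL pools had alpha-Spec levels of 11.68, 11.62, 11.83, 11.81 and 11.81. DR pools ran from 12.03 to 12.36 with a median of 12.21. The difference was 0.45 ± 0.15 (SE) or 1.37-fold, with SDs of 0.093 for AL (n = 5) and 0.11 for DR (n = 6).

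In neuron alpha-Spec was higher on DR food, where LanA was lower. AL pools were at 12.07, 12.08, 12.01, 12.10 and 11.74, and DR pools 1 to 6 at 13.27, 13.29, 13.16, 12.73, 11.90 and 12.70. All DR pools but pool 5, the one with the highest control probes, lay above the AL range. The difference was 0.84 ± 0.15 (SE) or 1.79-fold. It was 0.91 without pools 4 and 6 and 1.24 without pools 4, 5 and 6, so pools 4 and 6 were on the side of the other DR pools for alpha-Spec but not for LanA.

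Germ line DR pools of alpha-Spec were split. Pools 1 to 6 were at 11.48, 11.92, 12.21, 12.76, 12.62 and 12.75, while AL pools ran from 12.38 to 12.59 with a median of 12.44. Pools 1, 2 and 3 lay below the AL range and pools 4, 5 and 6 above it, and the mean difference was -0.16 ± 0.15 (SE). The 95th percentile of the control probes was 6.71, 6.85 and 6.75 in pools 1, 2 and 3 and 7.25, 7.54 and 8.58 in pools 4, 5 and 6. Over all transcripts, the correlation with the mean of the germ line AL pools was 0.849, 0.853 and 0.895 in DR pools 1, 2 and 3. It was 0.933, 0.969 and 0.963 in pools 4, 5 and 6, so the split was not limited to alpha-Spec. The part of the control probe level or of the whole array in this split was not tested. LanA in the same 6 DR pools, at 11.60 to 12.11, was above the AL range in each. It too was higher in pools 4, 5 and 6 than in pools 1, 2 and 3.

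Muscle alpha-Spec did not separate by food. AL pools ran from 11.57 to 11.95 (median 11.79) and DR pools from 11.32 to 12.15 (median 11.67), with 1 DR pool above the AL range and 2 below it. The difference was -0.08 ± 0.15 (SE). The pool above was DR pool 4, whose array stood apart from its group, and without it the difference was -0.17. Over all pools, muscle was the tissue in which the means of both genes differed least between foods. For alpha-Spec this rests on DR pool 4, as the germ line difference was -0.16.

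**Figure D2:**
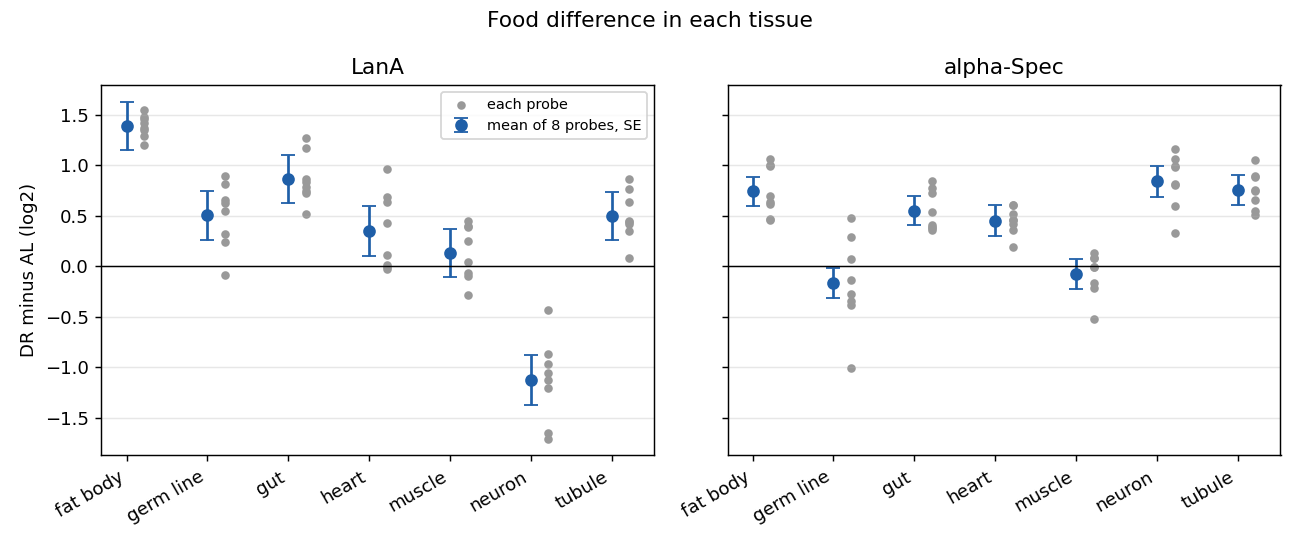
The DR minus AL difference (y axis, log2) is plotted for LanA and alpha-Spec in each tissue (x axis), with SE bars from the limma model and each of the 8 probes as a grey point. LanA is highest in fat body at 1.39 and is below 0 in neuron at -1.12, where alpha-Spec is at 0.84.

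The foods' difference could be followed along each message. The 8 probes of a gene are numbered in their identifiers, and these numbers were read as positions along the transcript, which the sources used here do not state. Read so, they run from 9867 to 11079 in LanA and from 5870 to 7078 in alpha-Spec, a stretch of 1212 and 1208 bases. In fat body all 8 LanA probes were higher on DR food, by 1.20 to 1.55, and 7 of them had separated pools. In neuron all 8 were lower on DR food, by differences from -1.71 to -0.43, and none had separated pools. The share of all probes with separated pools was not counted, so counts of separated probes, here and below, only describe these genes.

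In every tissue but fat body the LanA probes differed more among themselves. In heart the differences ran from -0.03 to 0.97, and the 4 brighter probes averaged 0.68 where the 4 dimmer averaged 0.02. In germ line they ran from -0.08 to 0.90, with 0.75 for the brighter and 0.26 for the dimmer probes. The second probe, numbered 10017, exceeded the control percentile on 53 of 82 arrays, while each of the others did so on at least 81. It stayed below that percentile on every tubule array, where its food difference was 0.08. The gut values ran from 0.52 to 1.27, those of tubule from 0.08 to 0.86 and those of muscle from -0.29 to 0.44.

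For alpha-Spec all 8 tubule probes were separated and higher on DR food, by 0.51 to 1.05. In fat body 7 of 8 were separated, with differences of 0.46 to 1.07, and in heart 7 of 8, with 0.20 to 0.61. In gut all 8 were higher, by 0.36 to 0.84, and 3 were separated. Neuron probes were all higher as well, by 0.34 to 1.16, and 4 were separated. Muscle probes ran from -0.52 to 0.13 with none separated.

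The germ line probes of alpha-Spec went both ways, from -1.01 to 0.48, and none was separated. The third probe, numbered 6184, gave the lowest value, and the seventh, numbered 6932, the highest. The third probe averaged 10.96 ± 0.08 (SD, n = 6) on AL food and 9.95 ± 1.17 (SD, n = 6) on DR food. Its DR pools therefore spread far more than its AL pools.

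**Figure D3:**
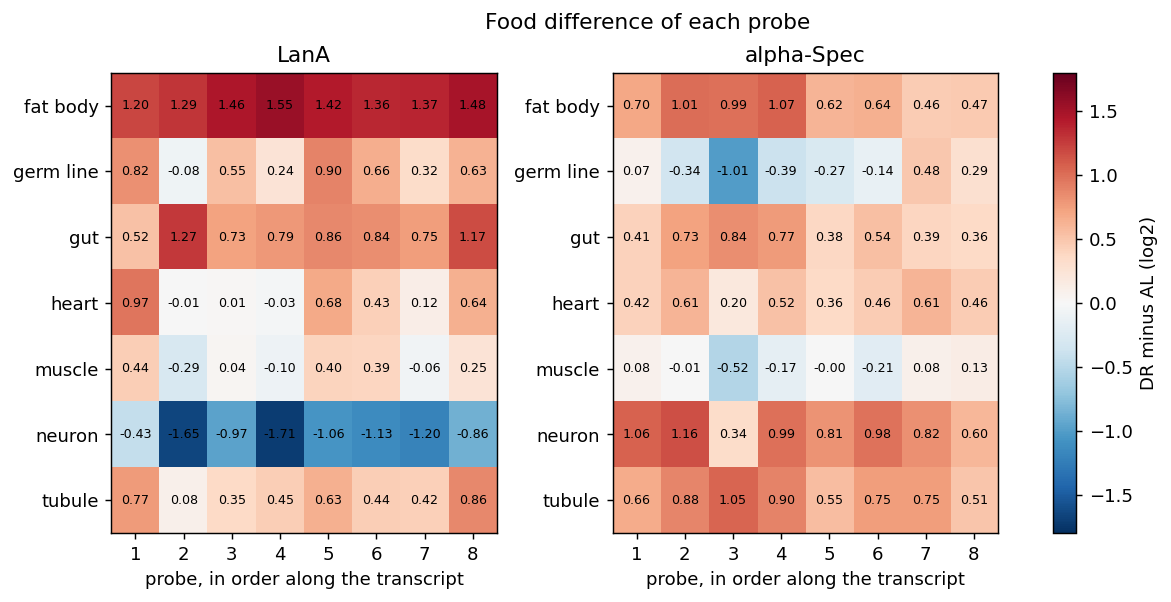
The DR minus AL difference (colour and printed value, log2) is shown for each of the 8 probes of LanA and of alpha-Spec (x axis, in the order of their numbers) in each tissue (y axis). The LanA fat body probes lie between 1.20 and 1.55, and the alpha-Spec germ line probes between -1.01 and 0.48.

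The food difference along the message was summarised as the mean of the 4 later probes minus the mean of the 4 earlier ones. Since these are the food differences that chose the genes, they are given with no test. In each gene 3 of the 4 later probes were also among the 4 brighter ones, so place along the message and brightness cannot be told apart.

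In fat body the earlier probes of alpha-Spec were higher on DR food by 0.94 and the later ones by 0.55. The later-minus-earlier value was 1.81 ± 0.17 (SD, n = 6) on AL food and 1.41 ± 0.14 (SD, n = 6) on DR food, and the AL and DR pools did not overlap. The difference was -0.39 ± 0.10 (SE). By brightness, the 4 dimmer probes gave 0.93 and the 4 brighter ones 0.56.

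In germ line the earlier alpha-Spec probes gave -0.42 and the later ones 0.09. The later-minus-earlier value was 1.26 ± 0.12 (SD, n = 6) on AL food and 1.76 ± 0.49 (SD, n = 6) on DR food, and its DR pools overlapped with the AL pools. The dimmer probes gave -0.47 and the brighter ones 0.14. In gut and tubule the dimmer alpha-Spec probes were the more different, as in fat body, with 0.72 against 0.38 and 0.90 against 0.62.

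For LanA the greatest later-minus-earlier differences were 0.25 ± 0.11 (SE) in germ line and 0.23 ± 0.11 (SE) in heart. In fat body, where its food difference was greatest, the earlier probes gave 1.38 and the later ones 1.41. The food difference of LanA in fat body was thus of like size at either end of the measured stretch.

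The probes of the neuron pools were set against the AL range one by one. In DR pools 1, 2 and 3 all 8 LanA probes lay below that range, and in pool 5 this was so for 6 probes. In pool 4, 4 probes lay above the range and 4 within it, and in pool 6, 6 lay above and 2 within. The split of the neuron DR pools for LanA was thus seen over most of its probes. For alpha-Spec all 8 probes lay above the AL range in DR pools 1, 2, 3 and 6, and 7 of 8 in pool 4. In pool 5, 4 lay above, 3 below and 1 within it, and its lowest was the third probe at 8.01.

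**Figure D4:**
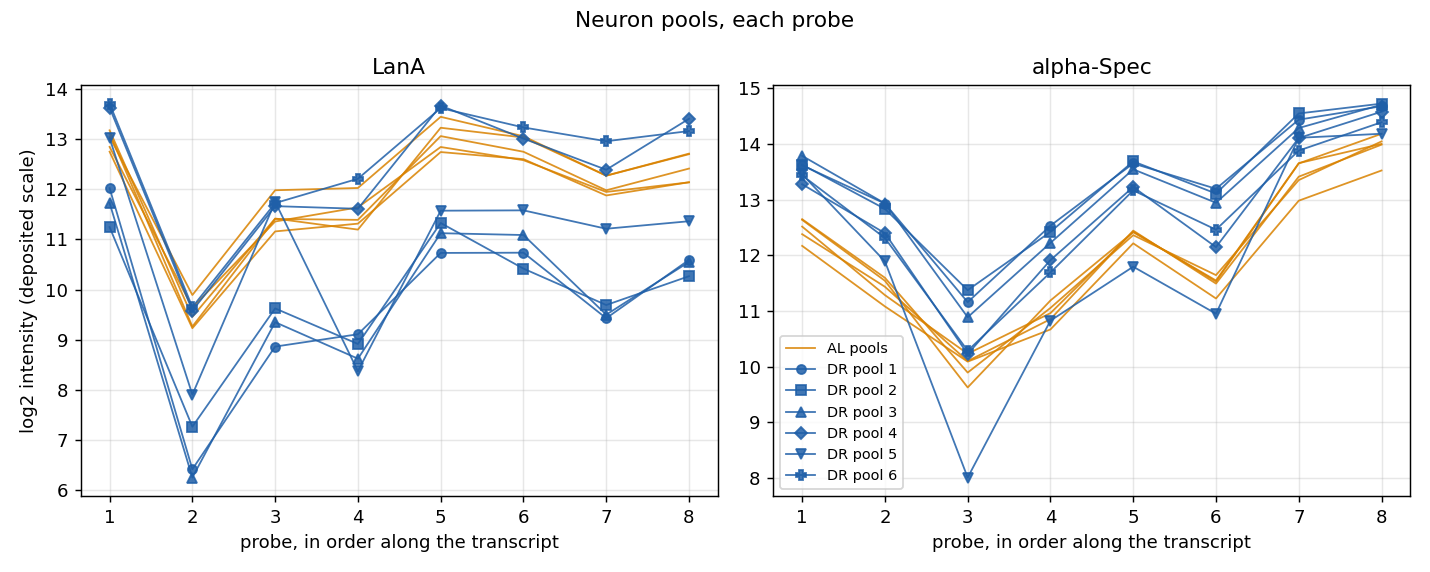
The log2 level (y axis) of each of the 8 probes of LanA and alpha-Spec (x axis, in the order of their numbers) is drawn for the neuron pools, with 1 line a pool and the foods in different colours. LanA lines of DR pools 1, 2 and 3 run below all AL lines at every probe, and those of DR pools 4 and 6 run within or above them.

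Levels were compared between tissues after a quantile normalization over all 82 arrays, which gives every array 1 distribution. On AL food the LanA mean was highest in neuron, at 11.45 ± 0.22 (SD, n = 5), and no neuron AL pool overlapped with the next tissue, germ line, at 10.89 ± 0.12 (SD, n = 6). Neuron did overlap with gut, whose AL pool 4, at 11.42, lay above the lowest neuron AL pool, at 11.20. Gut, fat body, muscle, heart and tubule followed, each overlapping with its neighbour in that order, down to 9.82 ± 0.15 (SD, n = 6) in tubule. On DR food gut and fat body had the highest LanA means, both 11.68, followed by germ line at 11.51. These 3 overlapped with each other, and the lowest germ line pool lay above every pool of the next tissue, muscle, at 10.60. Heart, neuron and tubule followed in overlapping order, at 10.54, 10.40 and 10.26. The place of neuron rests on its split pools, which were at 9.34, 9.43, 9.37, 11.87, 10.37 and 12.03 on this scale (SD 1.26, n = 6). Without pools 4 and 6 its mean was 9.63, below tubule.

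alpha-Spec on AL food was at 12.32 in gut, 12.29 in heart and 12.27 in germ line, which overlapped, and then at 11.85 in muscle, which did not overlap with germ line. Tubule, fat body and neuron followed at 11.77, 11.74 and 11.50, each overlapping with its neighbour. On DR food gut, at 12.84 ± 0.15 (SD, n = 6), and heart, at 12.76 ± 0.12 (SD, n = 6), lay above every tubule pool. The highest neuron pool (12.82) and germ line pool (12.64) lay above the lowest gut pool (12.62) and heart pool (12.57). Tubule (12.49), neuron and fat body (both 12.37), germ line (12.02) and muscle (11.75) followed, and their neighbours overlapped. The SD of neuron was 0.53 and that of germ line 0.68 (n = 6 each), and neuron without pools 4, 5 and 6 was at 12.78.

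Each tissue's level over both foods was then tested against the mean of the other 6 tissues with limma, with a call at an adjusted p under 0.05 and a difference of at least 2-fold. LanA and alpha-Spec were called in 0 of 7 tissues each, at any p, because no difference reached 2-fold. Calls were made for 21.6% of transcripts in fat body, 32.8% in germ line, 16.5% in gut, 6.98% in heart, 23.1% in muscle, 16.3% in neuron and 23.1% in tubule. The adjusted p of each tissue is given below. The share of all transcripts that pass by adjusted p alone was not counted, so no count of passes is read.

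LanA was lowest in tubule, at -0.86 ± 0.13 (SE; limma adjusted p = 6.38e-09) or 1.81-fold below the other tissues, and was also below them in heart at -0.49 (limma adjusted p = 0.000948) and in muscle at -0.28 (limma adjusted p = 0.0378). It was above them in gut by 0.59 (limma adjusted p = 2.71e-05), in germ line by 0.49 (limma adjusted p = 0.000271) and in fat body by 0.36 (limma adjusted p = 0.0071). The muscle value did not pass at 1 median per array (-0.14, limma adjusted p = 0.302), with the median of the probes (-0.24, limma adjusted p = 0.0998) or with the later probes (-0.21, limma adjusted p = 0.133). The fat body value did not pass with the median of the probes (0.22, limma adjusted p = 0.136) or the later probes (0.15, limma adjusted p = 0.272). With AL arrays alone gut (0.33, limma adjusted p = 0.103) and germ line (0.34, limma adjusted p = 0.0767) did not pass. With DR arrays they were at 0.85 and 0.65. Heart did not pass with the later probes (-0.30, limma adjusted p = 0.0515). For neuron the value over both foods was 0.18 (limma adjusted p = 0.224). It was -0.21 without DR pools 4 and 6 and -0.33 without pools 4, 5 and 6. These pools, the highest of the neuron DR group for LanA, were chosen after seeing the data, so those 2 values carry no test. The neuron value over all pools averaged values of opposite sign by food, 1.00 with AL arrays and -0.64 with DR arrays in the contrast. In fat body the value was -0.12 with AL arrays and 0.84 with DR arrays.

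alpha-Spec was above the other tissues in gut by 0.48 (limma adjusted p = 1.38e-06) and in heart by 0.42 (limma adjusted p = 5.96e-05). It was below them in muscle at -0.43 (limma adjusted p = 1.06e-05) and in neuron at -0.27 (limma adjusted p = 0.00688). The neuron value was -0.23 without DR pools 4 and 6 and -0.07 without pools 4, 5 and 6. These pools were chosen after seeing the data, so the values without them carry no test. Pool 5 was the lowest of the neuron DR group for alpha-Spec, so leaving it out raises the neuron level. Fat body, germ line and tubule did not pass, at -0.13, -0.02 and -0.04 (limma adjusted p = 0.164, 0.792 and 0.651). The germ line value passed at 1 median per array (-0.44, limma adjusted p = 3.08e-07) and with the median of the probes (-0.28, limma adjusted p = 0.00332), and with the later probes it turned to 0.16 (limma adjusted p = 0.0227). The fat body value turned to 0.20 at 1 median per array (limma adjusted p = 0.0129) and was -0.23 with the later probes (limma adjusted p = 0.00202), so the direction of these levels depends on the scaling and the probes. Neuron again differed by food, at -0.54 with AL arrays and 0.00 with DR arrays, and germ line was at 0.36 and -0.41. Muscle did not pass with AL arrays alone (-0.13, limma adjusted p = 0.36) and was at -0.72 with DR arrays.

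**Figure D5:**
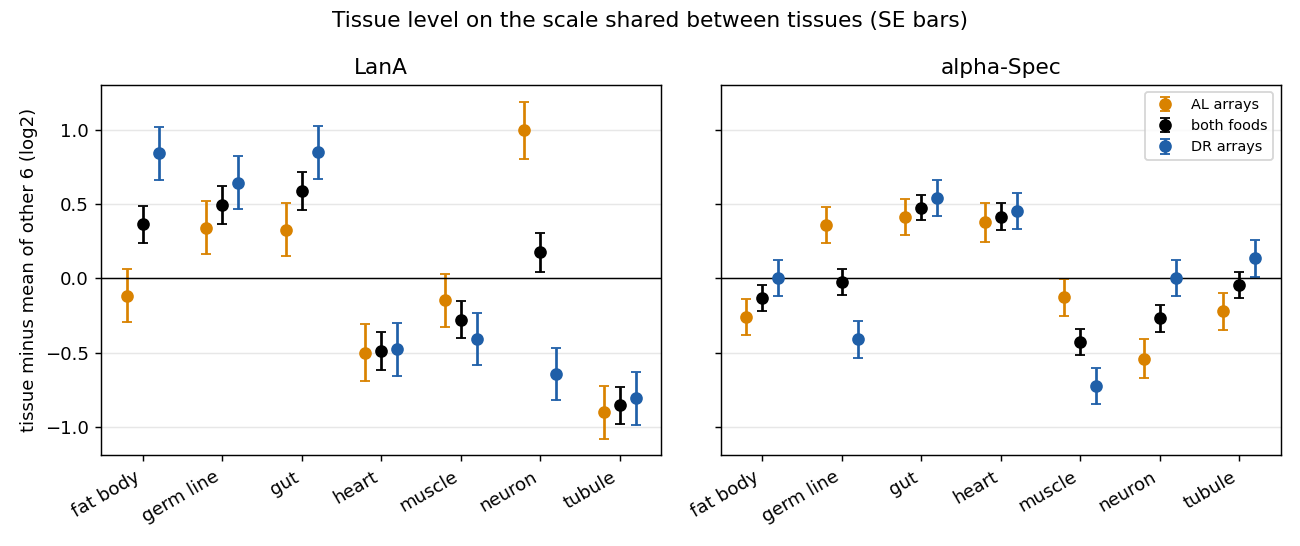
The difference between a tissue and the mean of the other 6 (y axis, log2, scale shared between tissues, SE bars) is plotted for each tissue (x axis) over AL arrays, both foods and DR arrays. LanA in tubule stays near -0.86 on either food, and LanA in neuron goes from 1.00 on AL food to -0.64 on DR food.

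Over the 14 group means on the shared scale, LanA spanned 1.86 log2 units and alpha-Spec 1.34, and the Pearson correlation between them was 0.15. These correlations describe 14 points that share arrays, and they carry no test. Among the other transcripts whose means spanned at least 1 log2 unit, LanA's pattern was most like those of FBtr0081904 (r = 0.83) and FBtr0079664 (r = 0.80), and least like those of FBtr0076956 (r = -0.80) and FBtr0076360 (r = -0.76). The reference table gives none of these transcripts a gene name. The search for each gene covered 15257 transcripts and the most extreme were taken, so the size of r is not read further. FBtr0081904 was higher on DR food in fat body by 1.59 and in gut by 0.90 and was lower in neuron, at -1.73, as LanA was, but in tubule it was at -1.13 where LanA was at 0.50. FBtr0079664 was at 0.73 in fat body and -0.57 in neuron, but at -0.05 in gut, -0.03 in heart and -0.07 in tubule, where LanA was higher. FBtr0076956 went the other way in fat body, at -1.70, and in neuron, at 2.42.

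The transcripts most like alpha-Spec were FBtr0075893 (r = 0.85) and FBtr0083225 (r = 0.84), and those least like it were FBtr0088542 (r = -0.81) and FBtr0073160 (r = -0.79). FBtr0083225 was higher on DR food in gut by 1.11, in tubule by 0.99, in neuron by 0.83, in heart by 0.71 and in fat body by 0.70, and its difference in muscle was 0.05. FBtr0075893 had its greatest difference in gut, at 1.54. In neuron FBtr0073160 was lower on DR food, at -1.04, and FBtr0088542 at -0.83.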

How the data were processed

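Probe values of 82 single-colour NimbleGen arrays were used. The deposited values are linear intensities from the authors' series table. Their sorted log2 values differed by at most 0.04 within a tissue and by up to 2.67 between tissues, so the authors' values had been quantile normalized within each tissue. The scanner, the feature extraction, any background step and the annotation were not given in the sources used here. Each intensity was log2 transformed and a transcript's value is the mean of its probes, with no filter on low values. Food differences used this scale, and tissue levels a quantile normalization over all arrays. All arrays entered 1 limma model of 14 groups with 68 residual degrees of freedom (limma 3.58.1, R 4.3.3, with data.table at version 1.17.8), with two-sided tests and Benjamini-Hochberg adjustment over all transcripts. The tests were checked on simulated data with 1 spread per transcript in all groups. That check does not cover groups whose pools are split. Figures used Python 3.11.15, numpy 2.4.6, pandas 2.3.3 and matplotlib 3.10.9.

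LanA, alpha-Spec and the gene lists were chosen with earlier results of these data known. The named genes are these members with their probes, list genes paired with 1 measured transcript, and per member the 2 transcripts most and the 2 least correlated with it. The reference genes, used for names alone, pair 16 transcripts with 1 gene and 28 with several. The test planned for later against earlier probes is not given, because it rests on the food differences that chose the genes. Pool numbers were not taken to pair AL with DR pools. Alternatives changed the scaling, the probe summary, the background, the filter, the foods or samples in the fit, the pairing and single pools. A value belongs to 1 transcript identifier, whose probes may match other transcripts of the gene. The number of arrays limits the precision.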

Additional observations from a re-analysis of the deposited data

Results flagged for a closer look

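In 3 of 28 sets, each 1 gene in 1 group of pools, 1 pool lay far from the others by Dixon's ratio of its gap to the set's range. Chance gives this for about 1 in 20 independent sets. The sets are not independent, as both genes share the arrays and tubule AL pool 4 was flagged for both. Tubule AL pool 4 was the highest of its group for LanA, at 9.97 with the nearest pool at 9.65. It was also the lowest for alpha-Spec, at 11.29 with the nearest pool at 11.85. The median correlation of this array with its group, 0.968, was the lowest among the tubule arrays. Neuron AL pool 5 was the lowest of its group for alpha-Spec, at 11.74 with the nearest pool at 12.01.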

How the results depend on the processing

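LanA's food difference kept its sign in every tissue under all alternatives run, and so did that of alpha-Spec outside germ line (-0.42 to 0.18) and muscle (-0.15 to 0.16). Cyclic loess gave LanA 0.88 in germ line, 0.62 in heart and 0.43 in muscle, and alpha-Spec 0.57 in heart. Subtracting the control median gave LanA 0.68 in heart, and alpha-Spec 0.81 in gut and 0.78 in heart. The 4 earlier probes gave alpha-Spec 0.94 in fat body and the 4 later ones 0.55. Leaving out neuron DR pools, chosen after seeing the data, gave LanA -2.19 without pools 4, 5 and 6, with a neuron level of -0.33 against the other tissues, and of -0.21 without pools 4 and 6. Tissue levels with 1 median per array were -1.01 for LanA in tubule, which then passed 2-fold, and 0.20 in fat body, -0.44 in germ line and 0.064 in tubule for alpha-Spec. The median of the probes gave alpha-Spec 0.11 in tubule and the later probes 0.16 in germ line. AL arrays gave -0.12 for LanA in fat body and 0.36 for alpha-Spec in germ line. DR arrays gave -0.64 for LanA in neuron, and 0.0017 in fat body, 0.0019 in neuron and 0.13 in tubule for alpha-Spec. Leaving out single pools gave levels of alpha-Spec of -0.087 to 0.082 in germ line and -0.063 to 0.0064 in tubule. Medians of the probes gave later-minus-earlier differences of 0.54 in heart and 0.34 in neuron for LanA, and of -0.081 in heart and -0.26 in neuron for alpha-Spec. The causes were not tested. Of 40 pairs of pools with 1 number, 21 correlated above 0.1. These correlations ran from -0.44 to 0.77 and are not the array correlations given above. Of 40 AL pools, 13 correlated best with the DR pool of their number. For each AL pool, 1 of the 6 DR pools of its tissue carried its number, which sets the share expected by chance. A batch shared by number was not tested. With that number as a replicate block, LanA's neuron difference was -1.46, the value without DR pool 6, which has no AL pool of its number, and no tissue level was called. The SE of LanA's fat body difference was 0.18 with the block and 0.24 without it. Dim probes, above all 10017 of LanA, limit what can be read from single probes.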
